A study of Mus musculus with 4 samples.

Results

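The genes described here encode protein kinases A, C, D and G, AMP-activated kinase, the mitogen-activated protein (MAP) kinases with the kinases above them, and the serine/threonine and dual specificity phosphatases that oppose them. Members were the probe sets of the array whose annotation gives exactly 1 gene symbol, where that symbol starts with Prka, Prkc, Prkd, Prkg, Ppp1 to Ppp6, or Mapk, Map2k, Map3k, Map4k or Dusp with a number, and with Ppp3ca left out. This gave 120 of 12422 probe sets, which stand for 88 genes. The rule reads gene names. All 4 samples were total RNA from mouse hippocampus, each measured on its own Affymetrix Murine Genome array, and they formed a single group. The labels give no strain, genotype, sex, age or treatment, and do not say whether the samples came from separate animals, so their spread, and any p-value built on it, may be partly technical. The numbers 1 to 4 given to the samples carry no order. The question that this design allows is how far each gene differed between replicate hippocampus samples.

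Protein kinase A (PKA) is a complex of catalytic and regulatory subunits that comes apart when cyclic AMP binds the regulatory subunits. Protein kinase C (PKC) isoforms are activated at membranes by diacylglycerol and, for the conventional isoforms, calcium. MAP kinases stand at the end of cascades in which a MAP3 kinase phosphorylates a MAP2 kinase, which phosphorylates the MAP kinase, and dual specificity phosphatases remove those phosphates from the MAP kinase again. In the hippocampus these kinases, and the phosphatases PP1, PP2A and calcineurin that work against them, are known for their part in long-term potentiation, long-term depression and memory.

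Several of the members are themselves targets of the pathways they belong to. PKA phosphorylates the transcription factor CREB, which binds the cAMP response element, and ERK signalling induces some dual specificity phosphatases as feedback inhibitors. Promoter sequences of RefSeq on mouse build GRCm38.p6 were found for 71 of the 88 member genes, and the 250 bases before each start were searched for the full cAMP response element TGACGTCA, which reads the same on both strands. It was present for 7 of 71 member genes (9.86%), against 478 of 27025 genes (1.77%) of the whole table. That table is not limited to genes on the array or expressed in hippocampus, so its share is not a matched background. A gene can have several starts, and members had more of them, so that the shares per window were 6.73% of 104 and 1.55% of 32851. The 7 genes were Dusp1, Dusp8, Mapk10, Ppp1r12c, Ppp1r15a, Ppp2ca and Prkar1a. The GC box, searched as GGGCGG or CCGCCC, was present for 77.5% of the member genes and 35.4% of all genes (65.4% and 32.7% of windows), and the CArG box of serum response factor for 0 of 71 and 1.62%. Members thus differed from the whole table in more than the cAMP response element, and no enrichment of that element is read from these shares. The windows of 4 genes, picked by hand as examples, are printed 5′ to 3′ on the strand of the gene. Dusp1, Dusp8 and Ppp1r15a were taken from the genes with the element and Dusp6 from those without it. Capitals mark the cAMP response element.
Dusp1, chr17:26508473-26508722, minus strand: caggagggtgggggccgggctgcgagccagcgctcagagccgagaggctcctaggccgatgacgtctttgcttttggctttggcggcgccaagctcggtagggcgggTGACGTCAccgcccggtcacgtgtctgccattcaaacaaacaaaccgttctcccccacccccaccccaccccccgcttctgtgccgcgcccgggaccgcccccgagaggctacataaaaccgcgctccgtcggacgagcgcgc
Dusp8, chr7:142095285-142095534, minus strand: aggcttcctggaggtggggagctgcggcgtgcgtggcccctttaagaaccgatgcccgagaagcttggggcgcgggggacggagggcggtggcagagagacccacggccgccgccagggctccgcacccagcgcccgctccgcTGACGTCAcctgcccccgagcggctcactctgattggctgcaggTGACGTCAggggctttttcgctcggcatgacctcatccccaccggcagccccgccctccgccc
Ppp1r15a, chr7:45526269-45526518, minus strand: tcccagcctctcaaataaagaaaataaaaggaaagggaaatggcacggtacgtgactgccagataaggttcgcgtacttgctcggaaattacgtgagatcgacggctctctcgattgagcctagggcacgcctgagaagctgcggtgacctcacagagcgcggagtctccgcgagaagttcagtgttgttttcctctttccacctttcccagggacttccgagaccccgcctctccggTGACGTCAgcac
Dusp6, chr10:99262981-99263230, plus strand: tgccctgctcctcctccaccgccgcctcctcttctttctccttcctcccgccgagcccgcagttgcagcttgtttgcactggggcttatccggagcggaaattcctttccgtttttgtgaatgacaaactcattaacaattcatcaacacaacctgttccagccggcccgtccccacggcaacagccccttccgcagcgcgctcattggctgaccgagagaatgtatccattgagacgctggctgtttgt
The element began 143 bases before the start of Dusp1, 107 and 63 bases before the start of Dusp8 and 12 bases before the start of Ppp1r15a. Its letters cannot overlap those of a GC box. The window of Dusp6 held no match. These are matches of letters and do not show that a factor binds there.

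Signals are given in quantile normalized array units, and differences as log2 ratios. Before taking log2, values under 27.7 units, the 25th percentile, were set to that floor. The 6210 probe sets whose mean signal lay above the median of all means, 104 units, were analysed, and 72 of the 120 member probe sets, for 63 genes, were among them. The means of the members closest to this limit were 107 units for Dusp2, inside it, and 101 units for Prkab1, outside it. No analysed member had a value under the floor. Across the analysed members, Pearson's r between pairs of samples ranged from 0.944 to 0.973, as a description across probe sets that share arrays and are not replicates. Of 5 control transcripts with probe sets at both ends, 4 had their largest 3′ to 5′ ratio in sample 4. For a messenger RNA a large ratio is a sign of shortened RNA or cDNA, but these 4 included 18S ribosomal RNA. The ratio of Gapdh stayed between 0.864 and 1.15. That of Actb was 1.84, 1.64, 1.51 and 2.03 in samples 1 to 4. Of 8 hippocampal marker genes listed, 6 were measured and 5 analysed, and the summed signal of these 5 was 2355, 2374, 2247 and 2404 units. All 8 neuronal markers were analysed, with sums between 17876 units in sample 4 and 22381 units in sample 1. The sum of 5 analysed oligodendrocyte markers was higher in samples 2 and 4, with 9689 and 10093 units, than in samples 1 and 3, with 7105 and 6993 units. That of 4 erythroid markers lay between 4652 units in sample 3 and 14231 units in sample 1. In such bulk tissue, fewer cells of a type and less RNA per cell cannot be told apart.

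Most of the kinase and phosphatase genes differed by less than 2-fold between the samples. The median range from the lowest to the highest sample was 0.47 log2 units over the 72 analysed members, a 1.38-fold span, against 0.53 log2 units over all 6210 analysed probe sets. The highest and lowest samples were 2-fold or more apart for 5 of 72 members (6.94%), against 15.2% of all analysed probe sets. These 5 probe sets belonged to Prkce, Prkd2, Mapk9, Ppp5c and Dusp2. Without sample 4, only that of Prkce among the 74 then analysed members spanned 2-fold, against 7.36% of all probe sets. A range over fewer samples tends to be smaller, but the drop was largest without sample 4. Part of it came from the limit for analysis, which was set anew in each run. Dusp2 gave 43.7 units in sample 2 and 175 units in sample 3, but was no longer among the analysed members without sample 4. It was also missing without sample 3, although sample 4 gave 133 units. With sample 1, 2 or 3 left out instead, 4 of 73, 5 of 73 and 4 of 71 members spanned 2-fold. The shares of all probe sets were then 11.2%, 11.8% and 11.1%. The variance of each probe set was tested against that of probe sets of like signal (limma, one-sided F test, Benjamini-Hochberg adjustment over all 6210). No member passed at an adjusted p under 0.05, and the smallest adjusted p of a member was 0.586. No probe set of the array passed either, so 0% was the background of this call. At an unadjusted p under 0.05, 3 of 72 members (4.17%) were found, Prkce, Ppp3r1 and Mapk9, against 5.62% of all probe sets, a share near that background. No member is therefore called variable, and the values that follow are given as measured.

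**Figure D1:**
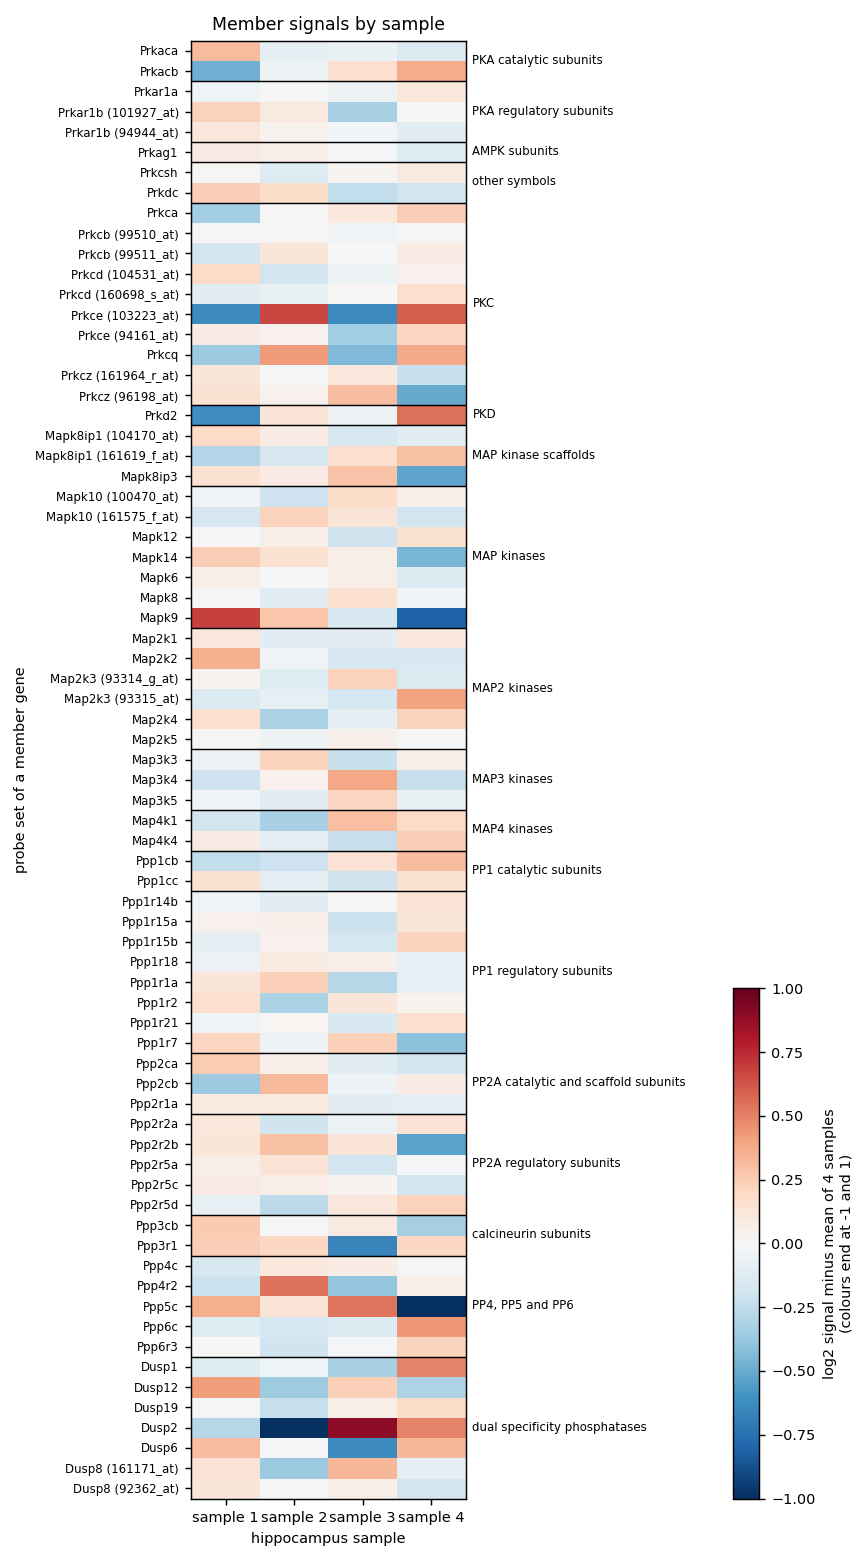
Signals of the 72 analysed member probe sets in the 4 hippocampus samples, as log2 signal minus the mean of the 4 samples, with red for higher and blue for lower and black lines between classes (the colours end at -1 and 1). Most rows are pale, and the deepest colours are those of Dusp2, Ppp5c, Mapk9 and the first probe set of Prkce.

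**Figure D2:**
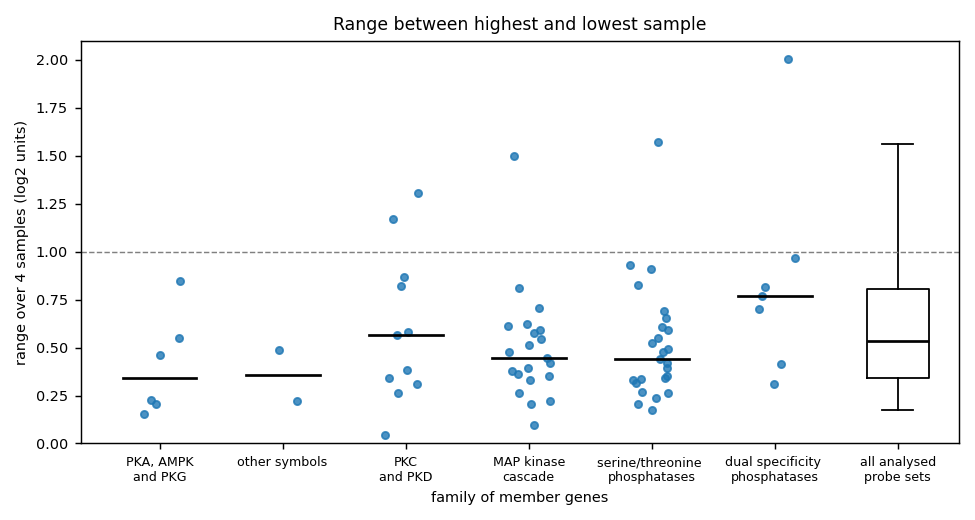
Range over the 4 samples in log2 units for each analysed member by family (points, with the family's median as a bar), beside a box plot of all 6210 analysed probe sets (box at the quartiles, whiskers at the 5th and 95th percentiles). The dashed line marks a 2-fold range, which 5 members exceed.

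The catalytic subunits of PKA ordered the samples differently. Prkaca, the alpha subunit, gave 1518, 1137, 1164 and 1103 units in samples 1 to 4, and only sample 1 stood above the others. Prkacb, the beta subunit, gave 1211, 1627, 1893 and 2182 units, so that sample 1 was lowest and sample 4 highest, a 1.80-fold range (adjusted p = 0.911, limma). In sample 1 the log2 signal lay 0.42 above the mean of the other samples for Prkaca and at -0.64 relative to it for Prkacb. The analysed probe sets of regulatory subunits spanned between 1.11-fold and 1.46-fold. Prkar1a, the widely expressed type I alpha subunit, gave 4397, 4523, 4381 and 4871 units, a 1.11-fold range, the narrowest of the 5 PKA probe sets analysed. Prkar1b, the neuronal type I beta subunit, was read by a pair of probe sets that gave 1274, 1158, 869.9 and 1093 units and 3266, 3094, 2961 and 2796 units, both highest in sample 1. Prkar2a, a type II subunit, gave 119, 80.3, 126 and 40.0 units, a 3.15-fold range, and its mean of 91.4 units was under the limit for analysis.

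AMP-activated kinase, a sensor of cellular energy, was represented by its regulatory subunits. Prkag1, the gamma subunit that binds AMP, gave 207, 204, 193 and 179 units with a range of only 1.15-fold. Prkab1, the beta subunit, gave 73.4, 120.1, 102 and 110.0 units and was not analysed. The symbol rule also took in a pair of genes that are not part of these signalling families. Prkcsh, the beta subunit of glucosidase II in the endoplasmic reticulum, gave 876, 792, 886 and 922 units, and Prkdc, the catalytic subunit of the DNA repair kinase DNA-PK, gave 163, 156, 116 and 121 units, higher in samples 1 and 2 than in samples 3 and 4. Prkg2, a cGMP-dependent kinase, was above the floor in sample 3 only, at 38.6 units.

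Among the analysed PKC probe sets, one of Prkce had the widest range and one of Prkcb the narrowest. Prkca and Prkcb encode conventional isoforms. Prkca gave 129.7, 164, 177 and 194 units, lowest in sample 1 and highest in sample 4. Prkcb gave 4455, 4458, 4316 and 4455 units on its first probe set, a 1.03-fold range that was the narrowest of the 72 analysed members, and 610.4, 757, 695 and 734 units on its second. Prkce, an isoform that does not need calcium, gave 646, 1596, 646 and 1515 units on its first probe set, with a mean of 1101 ± 526 units (SD, n = 4). Samples 2 and 4 were both high and samples 1 and 3 both low, and the highest and lowest were 2.47-fold apart (adjusted p = 0.586, limma). The oligodendrocyte markers had their higher sums in the same samples, although 1 of the 5, Mag, gave 528, 818, 425 and 403 units and was lowest in sample 4. Their part in this value was not tested. The second probe set of Prkce gave 697, 679, 517 and 765 units and did not show this split, with sample 3 alone lower than the others.

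Prkcq, the theta isoform, gave 94.2, 163, 89.3 and 158 units on its analysed probe set, also higher in samples 2 and 4 than in samples 1 and 3, with a range of 1.83-fold. Its other probe set gave 41.7, 57.5, 3.28 and 31.8 units, with sample 3 under the floor. Samples 2 and 4 were the pair with the highest signals for 14 of 72 members (19.4%), against 19.5% of all analysed probe sets, a share near that background. Prkcd, the delta isoform, which in brain is abundant in the thalamus, gave 394, 302, 332 and 356 units and 439.6, 452, 478 and 528 units on its probe sets, highest in sample 1 on the first and in sample 4 on the second. Of 9 thalamus markers listed, 7 were measured and 5 analysed, and Gbx2 lay under the floor in all samples. The sums of the 5 analysed markers were 3624, 3249, 2951 and 2454 units. Cplx1, with 2182, 1934, 1572 and 1084 units, made up the largest part. Zic1 went the other way, with 107, 185, 182 and 353 units, lowest in sample 1 and highest in sample 4. Of the 5 markers, 3 were highest in sample 1 and 3 were lowest in sample 4. The part of such tissue in the Prkcd signals was not tested.

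The atypical isoform Prkcz, whose locus also yields the brain form PKM-zeta, was lowest in sample 4 on both analysed probe sets. These gave 809, 753, 906 and 513 units and 335, 306, 331 and 265 units, with log2 deviations in sample 4 of -0.68 and -0.29. A probe set of the same gene under the limit gave 27.8, 68.0, 63.1 and 39.6 units. Prkci, the other atypical isoform, gave 55.4, 94.0, 71.4 and 71.9 units, and Prkch, the eta isoform, lay under the floor in all samples, at 9.08 units on average. Of the protein kinase D genes, which encode kinases activated downstream of PKC, only a probe set of Prkd2 was analysed. It gave 78.4, 131, 116 and 176 units, a 2.25-fold range (adjusted p = 0.994, limma), with sample 1 lowest and sample 4 highest. The second Prkd2 probe set, just under the limit, gave 99.95, 51.2, 128 and 117 units. Prkd1 gave 87.5, 88.2, 94.0 and 57.7 units, and Prkd3 gave 9.05, 77.2, 55.9 and 50.5 units.

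**Figure D3:**
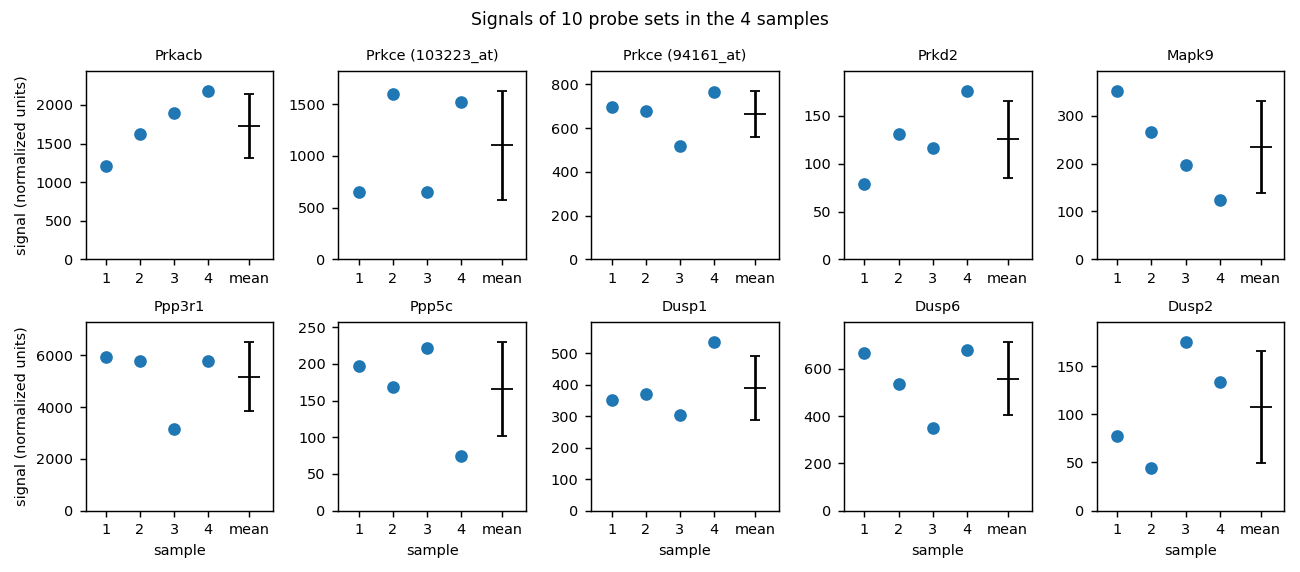
Signals in normalized units of 10 member probe sets in samples 1 to 4 (points), with the mean and SD of the 4 samples at the right of each panel. Both probe sets of Prkce are shown, and only the first, in the left of their panels, separates samples 2 and 4 from samples 1 and 3.

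Of the analysed MAP kinases, Mapk9 had the widest range, and the others spanned at most 1.63-fold. Mapk9 (JNK2), a stress-activated kinase, gave 352, 266, 197 and 125 units in samples 1 to 4, a mean of 235 ± 97.0 units (SD, n = 4) and a 2.82-fold range, with an adjusted p of 0.887 (limma). Its signal in sample 4 lay -1.08 log2 units from the mean of the others. The other JNK genes did not share this order. Mapk8 (JNK1) gave 497, 468, 562 and 495 units on its analysed probe set, and Mapk10 (JNK3), the neuronal form, gave 1669.7, 1475, 1939.5 and 1765 units and 274, 359.5, 336 and 269 units on its probe sets. Mapk14, the p38 alpha kinase of stress and cytokine signalling, gave 915, 854, 800.4 and 562 units, so that its samples ranked as those of Mapk9 did, with sample 4 lowest (log2 deviation -0.61).

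Mapk12 (p38 gamma) gave 154, 160.5, 134 and 172 units, and Mapk6 (ERK3), an atypical MAP kinase, gave 399, 385, 402 and 348 units, a 1.15-fold range. Neither range reached 1.5-fold. Mapk7 (ERK5) gave 35.6, 32.0, 38.3 and 41.4 units, close to the floor, and Mapk13 (p38 delta) lay under the floor in all samples. A second Mapk8 probe set was above the floor in sample 3 only, at 34.5 units. The scaffold genes, whose products hold JNK with its upstream kinases and link it to kinesin, behaved differently from each other. Mapk8ip3 (JIP3) gave 1457, 1389, 1596 and 910.4 units and was lowest in sample 4, with a log2 deviation of -0.70. Mapk8ip1 (JIP1) gave 954, 877, 743 and 769 units on one probe set and 114, 126, 156 and 172 units on the other, whose orders are nearly opposite.

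The MAP2 kinases, which phosphorylate the MAP kinases, spanned less than 1.5-fold on all 6 analysed probe sets. Map2k1 (MEK1), the activator of ERK, gave 1149, 985, 987 and 1140.5 units, and its partner Map2k2 (MEK2) gave 260.3, 197, 182 and 183 units, highest in sample 1. Map2k5, which activates ERK5, gave 437, 419, 448 and 431 units, a 1.07-fold range that only the first probe set of Prkcb undercut among the analysed members. Map2k4, which acts on JNK and p38, gave 457, 327, 382 and 477 units, with samples 1 and 4 above samples 2 and 3. Map2k3, an activator of p38, gave 442, 397, 507 and 390.0 units on one probe set, highest in sample 3, and 226, 234.4, 219.9 and 328 units on the other, highest in sample 4. Map2k6, which also activates p38, was not analysed and gave 56.5, 56.2, 92.4 and 51.5 units and 67.0, 80.3, 63.2 and 103 units.

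Of 17 probe sets for MAP3 kinases, 3 were analysed, with a widest range of 1.53-fold for Map3k4. It gave 171, 204, 258 and 169 units, highest in sample 3. Map3k5 (ASK1), a kinase activated by oxidative stress, was also highest in sample 3, with 163, 154, 194 and 158 units. Map3k3 gave 207, 249.8, 183 and 222 units on its analysed probe set, with sample 2 highest. Among the MAP4 kinases, which act above the MAP3 kinases, Map4k4 gave 451, 398, 364 and 508 units and Map4k1, known from blood cells, gave 129, 117, 179.9 and 168 units. Samples 1 and 2 were lower than samples 3 and 4 for Map4k1, while for Map4k4 samples 1 and 4 were the higher pair.

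The catalytic subunits of PP1 both had their highest value in sample 4 and ranged over less than 1.5-fold. Ppp1cb gave 621, 635, 814 and 910.4 units and Ppp1cc gave 817, 688, 641 and 818 units, with samples 1 and 4 about equal for Ppp1cc. Regulatory subunits direct PP1 to its substrates or inhibit it, and their analysed probe sets spanned between 1.13-fold, for the actin-associated Ppp1r18, and 1.57-fold, for Ppp1r7. Ppp1r7, which binds PP1 in the nucleus, gave 318, 265, 324 and 206 units and was lowest in sample 4. Ppp1r1a, an inhibitor of PP1 that acts when PKA has phosphorylated it, gave 201, 218, 151 and 174 units, lowest in sample 3. Ppp1r2, an inhibitor of PP1 that does not need PKA, gave 146, 105, 141 and 133 units, lowest in sample 2, and Ppp1r14b, another inhibitor, gave 244, 235, 254 and 277 units. Ppp1r18 gave 626, 695, 676 and 616 units, and Ppp1r21 gave 1160.2, 1203, 1071 and 1331 units. Ppp1r15a (GADD34) and Ppp1r15b bring PP1 to the translation factor eIF2 alpha. Ppp1r15a gave 168, 169, 140.0 and 176 units and Ppp1r15b 207, 227, 196 and 257 units, both highest in sample 4 and lowest in sample 3, with ranges of 1.26-fold and 1.31-fold.

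PP2A is built from a catalytic, a scaffold and a variable regulatory subunit. Ppp2ca, the alpha catalytic subunit, gave 240.4, 209, 187 and 177 units, and Ppp2cb, the beta catalytic subunit, gave 709, 1142, 879 and 964 units. Sample 1 was the highest for Ppp2ca and the lowest for Ppp2cb. The scaffold Ppp2r1a gave 4062, 4051, 3527 and 3545 units, higher in samples 1 and 2 than in samples 3 and 4 by a small margin, with a 1.15-fold range. Of the regulatory subunits, Ppp2r2b, a subunit of the B55 group found in neurons, gave 1358, 1533, 1367 and 864 units, so that sample 4 was -0.71 log2 units from the mean of the others. Ppp2r2a, of the same group, gave 123, 99.2, 109.8 and 126 units and did not share this. Of the B56 subunits, Ppp2r5a gave 458, 482, 383 and 434 units. Ppp2r5c gave 1637, 1624, 1580.5 and 1366 units, and Ppp2r5d 222, 197, 255 and 277 units. Their ranges were 1.26-fold, 1.20-fold and 1.41-fold. Each of the 3 had a different lowest sample.

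Calcineurin, the phosphatase that calcium and calmodulin activate, was read through its regulatory subunit and the beta and gamma catalytic subunits. Ppp3r1, the calcium-binding B subunit, gave 5956, 5779, 3165 and 5799 units in samples 1 to 4, a mean of 5175 ± 1342 units (SD, n = 4). Samples 1, 2 and 4 lay close together, and sample 3 was -0.88 log2 units from the mean of the others (adjusted p = 0.664, limma). The catalytic subunit Ppp3cb did not share the low value of sample 3 and gave 579, 476, 513 and 385 units, lowest in sample 4. Ppp3cc, just under the limit, gave 103, 97.0, 113 and 86.3 units.

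The related phosphatases PP4, PP5 and PP6 included the widest range among the analysed serine/threonine phosphatases. Ppp5c, which works with the chaperone Hsp90, gave 197, 169, 221 and 74.6 units, a mean of 166 ± 64.3 units (SD, n = 4). The 2.97-fold range came from sample 4, which lay -1.38 log2 units from the mean of the others (adjusted p = 0.898, limma). Ppp4c, the catalytic subunit of PP4, gave 269, 324, 318 and 296 units, while its regulatory subunit Ppp4r2 gave 128, 218, 114 and 154 units, highest in sample 2 and lowest in sample 3. Ppp6c, the catalytic subunit of PP6, gave 345, 332, 341 and 506 units, where samples 1 to 3 lay close together and sample 4 above them. A second Ppp6c probe set under the limit gave 104, 109.9, 86.3 and 85.1 units. The PP6 regulatory subunit Ppp6r3 gave 887, 773, 876 and 1036 units, again highest in sample 4.

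The dual specificity phosphatases had the widest median range of the families, 0.77 log2 units over 7 analysed probe sets, against 0.47 over all members and 0.53 over all analysed probe sets. Their order between samples was not shared. Dusp1 (MKP-1), a nuclear phosphatase induced by growth factors and stress, gave 351, 369, 304 and 535 units, highest in sample 4 and lowest in sample 3. Dusp6 (MKP-3), a cytoplasmic phosphatase specific for ERK, gave 669, 537, 348 and 682 units, also lowest in sample 3 and with samples 1 and 4 close together at the top. Dusp2 (PAC-1), a nuclear phosphatase known from activated lymphocytes, gave 77.3, 43.7, 175 and 133 units, where samples 3 and 4 were higher than samples 1 and 2. This was the widest range of any analysed member, 4.01-fold, at a mean close to the limit for analysis (adjusted p = 0.992, limma).

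Dusp8, a phosphatase of JNK and p38 expressed in brain, gave 734, 676, 704 and 591 units and 294, 206, 335 and 249 units on its probe sets, lowest in sample 4 on the first and in sample 2 on the second. Dusp12 gave 254, 149, 225 and 153 units, with samples 1 and 3 above samples 2 and 4, and Dusp19 gave 149, 129, 158 and 172 units. The adjusted p-values (limma) of Dusp1, Dusp6, Dusp12, Dusp19 and the probe sets of Dusp8 lay between 0.900 and 0.996. The genes with a cAMP response element in the printed windows did not share an order either. Dusp1 and Ppp1r15a were highest in sample 4, whereas the probe sets of Dusp8 were highest in samples 1 and 3. Of the other genes with the element, Prkar1a was highest in sample 4, Ppp2ca in sample 1, and the probe sets of Mapk10 in samples 3 and 2, while the probe sets of Ppp1r12c, with means of 18.7 and 3.65 units, lay under the floor throughout.

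**Figure D4:**
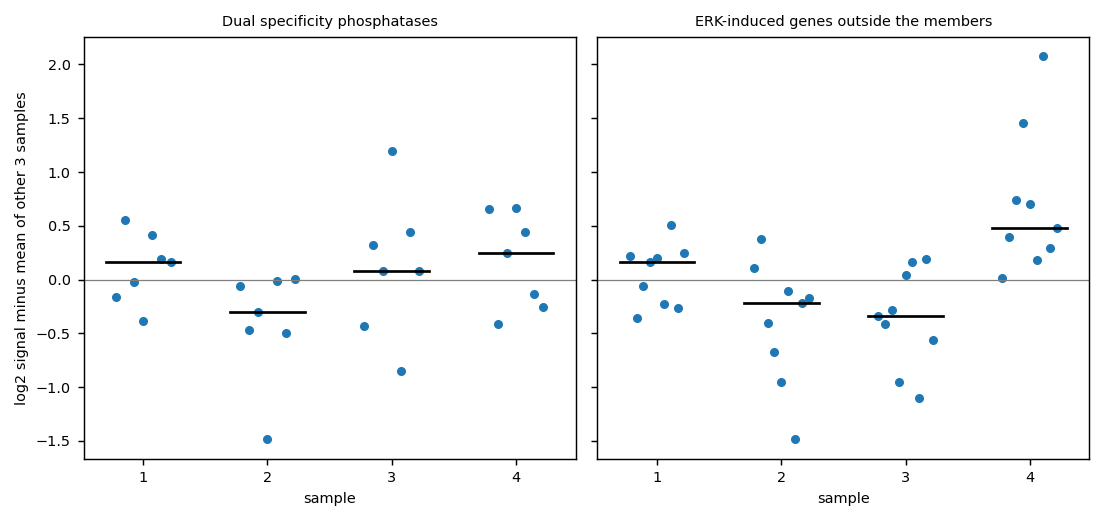
Deviation of each sample from the mean of the remaining 3 (log2 units), with the median as a bar. The left panel holds the 7 analysed probe sets of dual specificity phosphatases and the right panel 9 ERK-induced genes outside the members. The 9 ERK-induced genes all lie above 0 in sample 4, where 4 of 7 phosphatase probe sets do, those of Dusp1, Dusp2, Dusp6 and Dusp19.

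Genes outside the members that act in the same pathways were taken from lists written with earlier results of these data known, each gene through its analysed probe set with the highest mean. None of them passed the variance test in any list. Of 14 ERK-induced genes listed, 9 were measured and all 9 analysed. In sample 4, 9 of 9 were higher than the mean of the other samples, against 3241 of 6210 probe sets (52.2%). Their median log2 deviation there was 0.48, against 0.02 over the array. Because the list was written with earlier results of these data known, no excess over the array is read from it. Fos, a transcription factor of the early response, gave 157, 55.5, 67.7 and 354 units, and Junb gave 293, 189, 164 and 573 units. Egr1 gave 664, 625, 496 and 596 units, and its log2 deviation in sample 4 was 0.01. Among the phosphatases, 4 of 7 probe sets were higher in sample 4 by the same measure, with a median of 0.25.

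Of the PKA list, 11 of 13 genes were measured and 5 analysed, and 0 of 5 were above the others in sample 4 (median log2 deviation -0.17), while 4 of 5 were above in sample 1 (0.30) and 4 of 5 in sample 3 (0.17). Over all analysed probe sets the shares above the others were 51.4%, 51.1% and 52.2% in samples 1, 3 and 4. Akap8l gave 910.4, 509, 720.4 and 599 units and Akap1, which anchors PKA at mitochondria, gave 603, 441, 620.4 and 427 units. Pkia, a heat-stable inhibitor of PKA, gave 863, 678, 669 and 709.6 units. Of the PKC list, 7 of 11 genes were analysed, with medians between -0.16 and 0.10. Neurogranin (Nrgn), a postsynaptic PKC substrate that binds calmodulin, gave 1978, 2868, 1422 and 1965 units, a 2.02-fold range, and Gap43, the growth cone substrate, gave 794, 742, 1141 and 860.2 units. These were the widest ranges among the analysed genes of that list.

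The module from Ras to ERK had 8 analysed of 19 listed genes and medians between -0.15 and 0.12. The exchange factor Rasgrf1 gave 1257, 1491, 886 and 1271 units and the adaptor Grb2 gave 998, 919, 573 and 912 units, both lowest in sample 3, and for Grb2 the other samples lay close together. Among 12 analysed MAP kinase substrates and effectors, with medians between 0.00 and 0.08, Elk1, an ERK target that works with serum response factor, gave 250.4, 280.3, 115 and 72.5 units. Mapt, the microtubule protein tau, gave 1589, 1723, 2129 and 3118 units and Jund gave 3448, 4254, 4851 and 5828 units, both highest in sample 4 and lowest in sample 1. Of 11 other phosphatase and inhibitor genes, with medians between -0.14 and 0.04, Ppm1b gave 609.9, 505, 519 and 195 units, lowest in sample 4. Rcan1, an inhibitor of calcineurin that is itself a calcineurin target, gave 406, 423, 434 and 633 units, with sample 4 above samples that lay close together. Fkbp1a, the binding protein of the calcineurin inhibitor FK506, gave 4069, 4339, 3676 and 3942 units.

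By family, the medians of the log2 deviation ranged from -0.30 to 0.25. Over all 72 members they were 0.05, 0.00, -0.03 and 0.06 in samples 1 to 4, against 0.01, 0.01, 0.01 and 0.02 over all analysed probe sets. For the 6 probe sets of PKA and AMP-activated kinase they were 0.13, 0.02, -0.05 and -0.07. For the 11 of PKC and PKD, which stand for 7 genes, they were -0.14, 0.06, -0.05 and 0.21. Of these 11 probe sets, 9 were higher than the others in sample 4, against 52.2% of all analysed probe sets. The first probe set of Prkcb was higher by 0.015 only, and both of Prkcz were lower. With 1 probe set per gene, the value of PKC and PKD in sample 1 was -0.46. For the 21 probe sets of the MAP kinase cascade they were 0.01, -0.07, 0.07 and -0.04. With each array scaled to a shared median, the value in sample 4 turned to 0.09 for this cascade and to 0.03 for the PKA group, while the median of all analysed probe sets moved to 0.11 there. The 25 serine/threonine phosphatase probe sets gave 0.09, 0.06, -0.07 and 0.07. The signs of these were not stable: sample 2 gave -0.0151 with median scaling and -0.0246 without sample 4, and samples 3 and 4 gave 0.00770 and -0.0218 without the signal filter. Sample 1 gave 0.00211 without sample 3. The 7 probe sets of dual specificity phosphatases gave 0.16, -0.30, 0.08 and 0.25, and the value in sample 4 was 0 without the filter. Members at least 1.5-fold below the mean of the others were most frequent in sample 4, with 6 of 72 (8.33%), against 9.24% of all analysed probe sets. They were Prkcz, Mapk8ip3, Mapk14, Mapk9, Ppp2r2b and Ppp5c. In samples 1, 2 and 3 such members numbered 3, 1 and 4, against 5.09%, 4.81% and 4.98% of all analysed probe sets. Members at least 1.5-fold above the mean of the others were also most frequent in sample 4, with 4 of 72 (5.56%). The share of all analysed probe sets was 8.23%. These members were Prkce, Prkd2, Dusp1 and Dusp2. In samples 1, 2 and 3 the members on the high side numbered 1, 2 and 2, against 5.2%, 4.96% and 5.27% of all analysed probe sets. In sample 4 the 3′ to 5′ ratio was highest for 4 of 5 control transcripts, among them 18S ribosomal RNA. There, 6 of 8 neuronal markers also had their lowest value, against 30.7% of all analysed probe sets. The marker sums were 22381, 20095, 20443 and 17876 units over the samples. The part of either in these low values was not tested.

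Probe sets that read the same gene often ordered the samples differently. Of 27 member genes with several probe sets, 9 had a pair of analysed ones. In 2 of these 9 genes both probe sets had the same highest sample and in 1 the same lowest sample. The share over all genes of the array with such pairs was not computed. These counts are therefore not read as particular to the members. Prkcb and Prkar1b shared the highest sample, although for Prkcb the first probe set gave nearly equal values in samples 1, 2 and 4 and its highest and lowest samples changed places with the deposited values or with median scaling. Prkcz shared the lowest sample. For Prkce, Mapk8ip1, Mapk10, Map2k3, Prkcd and Dusp8 neither end was shared. Among all members, 15 of 120 probe sets, of which 4 were analysed, carry the suffix f or r in their names, which marks a design shared within a sequence family or with relaxed probe rules. These 4 were the analysed probe set of Prkd2 and those given second above for Mapk8ip1, Mapk10 and Prkcz. Outside the members, the probe sets used for Junb and Etv4 in the list of ERK-induced genes also carry the suffix r.

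**Figure D5:**
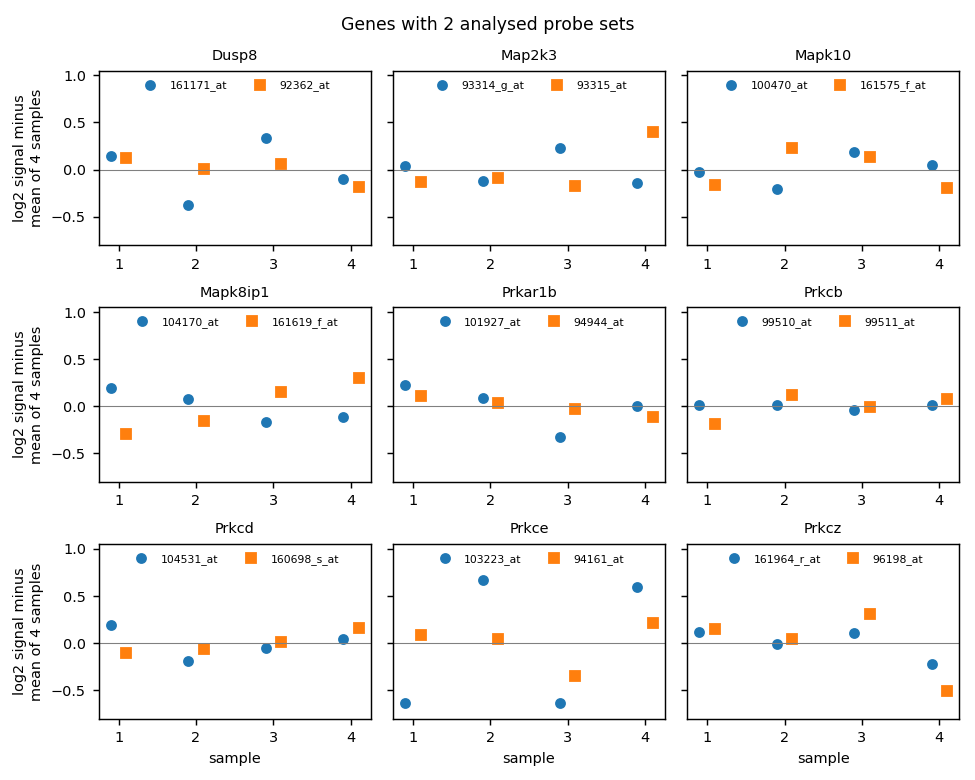
Log2 signal minus the mean of the 4 samples for the 9 member genes with 2 analysed probe sets (circles and squares). The probe sets of Prkcz are both lowest in sample 4, whereas those of Mapk8ip1 and Prkce order the samples differently.

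The 48 member probe sets that were not analysed had low signals. Of these, 12 lay under the floor in all 4 samples, 18 in some, and 18 were above it in all. For 25 of the 88 genes no probe set was analysed. MAP3 kinases made up the largest part, with 14 of 17 probe sets. Those of Map3k2 and Map3k6 and one each of Map3k4, Map3k7 and Map3k8 stayed under the floor. The neuronal kinase Map3k12 (DLK), which signals axon injury, gave 109.8, 33.8, 65.0 and 19.2 units, with sample 4 under the floor. Map3k7 (TAK1) gave 23.5, 33.9, 65.9 and 73.2 units, with sample 1 under the floor. Map3k1 gave 57.7, 64.6, 44.0 and 57.9 units on the highest of its 3 probe sets, and Map3k11 gave 20.7, 28.8, 25.9 and 40.0 units, with samples 1 and 3 under the floor. Further probe sets of Map3k3 gave 109.8, 55.4, 37.2 and 96.7 units and 85.9, 79.6, 70.1 and 133 units, and that of Map3k8 which exceeded the floor gave 57.9, 36.8, 42.3 and 39.6 units.

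Among the phosphatases with low signals, Ppp1r17, a substrate of cGMP-dependent kinase known from cerebellar Purkinje cells, gave 16.8, 138, 80.2 and 29.1 units, and its second probe set gave 7.18, 33.4, 46.7 and 5.94 units. Ppp2r1b, the second scaffold subunit of PP2A, gave 44.3, 85.2, 116 and 30.9 units. Their ranges of 4.98-fold and 3.75-fold were wider than that of any analysed serine/threonine phosphatase. Ppp1r3c, which directs PP1 to glycogen, gave 126, 78.8, 110.0 and 72.6 units. Dusp11, which acts on RNA, gave 70.4, 48.8, 92.3 and 42.8 units, and Dusp16, a JNK phosphatase, gave 73.5, 20.3, 36.3 and 16.2 units and 10.1, 51.9, 26.5 and 13.5 units on its probe sets, each under the floor in some samples. Dusp9, an ERK phosphatase, lay under the floor on one probe set and gave 48.0, 87.4, 26.9 and 74.9 units on the other. A second Map4k4 probe set gave 93.3, 29.0, 64.1 and 20.2 units, and one of Ppp1r2 was above the floor in sample 3 only, at 72.6 units. Values near the floor cannot be told from background here, and no order of samples is read for probe sets under the limit for analysis.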

How the data were processed

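Total RNA of 4 mouse hippocampus samples was read on Affymetrix Murine Genome arrays, and the deposited values are 1 signal intensity per probe set and array on a linear scale, and by their similar trimmed means the authors appear to have scaled the arrays to a shared level. The software used for this is not given in the sources used here. Precision is limited by the number of arrays, 4. Gene symbols came from the platform annotation, which gave 10833 of 12422 probe sets 1 symbol, 396 several and 1193 none. Only probe sets with 1 symbol were named.

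The 66 control probe sets were left out. The intensities were quantile normalized (limma 3.58.1, R 4.3.3) and floored at the 25th percentile before log2. Analysed were the probe sets whose mean lay above the median of all means. A deviation is a sample's log2 value minus the mean of the other 3. A one-sided F test set each probe set's variance (3 degrees of freedom) against a robust intensity trend with 5.06 prior degrees of freedom, with Benjamini-Hochberg adjustment over 6210 probe sets and a threshold of 0.05. The procedure was tried on data simulated from its own fitted variance model, either without shifts or with shifts larger than nearly all member ranges. This does not show that it could detect differences of the size seen here. The members and lists were chosen with earlier results of these data known. Signals in every sample were to be given for the members with the highest mean or the largest range of each class, those with an unadjusted p under 0.05 or a 2-fold range and those with several analysed probe sets. They are given here for all 72 analysed members, and from each pathway list for the 2 genes with the largest range and the gene with the highest mean. Alternatives were other scalings, floors and filters, 1 probe set per gene, other variance trends and leaving out each sample.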

Additional observations from a re-analysis of the deposited data

Results flagged for a closer look

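In 5 of 72 analysed members (6.94%), against 376 of 6210 probe sets (6.05%), 1 sample stood apart from the other 3 by Dixon's gap, the distance to the nearest sample divided by the whole range, set against its 95% critical value. Chance alone gives about 1 in 20. Prkaca was high in sample 1, with a gap of 0.831. The first probe set of Prkcb was low in sample 3, with a gap of 0.977 within a range of only 1.03-fold. Its highest and lowest samples changed places with the deposited values or with median scaling, so this gap depends on the normalization. The second probe set of Map2k3 was high in sample 4, with a gap of 0.840. Ppp3r1 was low in sample 3, with a gap of 0.952 and a 1.88-fold range. Ppp6c was high in sample 4, with a gap of 0.911 and a 1.52-fold range.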

How the results depend on the processing

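No member passed the adjusted variance test under any alternative run, with smallest adjusted p-values of members (limma) between 0.448 and 0.900. Members with an unadjusted p under 0.05 numbered 9 of 120 (7.5%) without the signal filter, against 9.85% of all probe sets there. With a sample left out they numbered 2 to 5 of 71 to 74 members, against 5.01% to 5.86% of all probe sets, and 3 as reported. Members with a 2-fold range numbered 20 of 120 (16.7%) without the filter, against 22.6% of all probe sets, 1 to 5 when a sample was left out, against 7.36% to 11.8%, and 5 as reported. Of all probe sets, 2810 had such a range without the filter and 457 to 735 when a sample was left out, against 944 as reported. Among 216 family medians, 197 stayed within the spread between samples and 19 did not. With median scaling, the values in sample 2 were -0.12 for all members, -0.14 for PKA and AMP-activated kinase, -0.17 for the MAP kinase cascade and -0.0151 for the serine/threonine phosphatases. In sample 4 they were 0.14 for all members, 0.0278 for PKA and AMP-activated kinase and 0.0875 for the cascade. With this scaling the median of all analysed probe sets was itself -0.087 in sample 2 and 0.11 in sample 4, against 0.01 and 0.02 as reported. Without the filter, the medians were 0 for all members in samples 1 and 4, for the cascade in sample 3 and for the dual specificity phosphatases in sample 4. They were 0.0492 for PKC and PKD in sample 4, and 0.00770 in sample 3 and -0.0218 in sample 4 for the serine/threonine phosphatases. Probe sets under the floor in all samples, 12 among the members, have a deviation of 0 in this run. With 1 probe set per gene, PKC and PKD had -0.46 in sample 1. When a sample was left out, the median of all members in sample 4 was 0.0148 to 0.0554 and that of PKA and AMP-activated kinase was -0.165 to -0.00572. That of the serine/threonine phosphatases was 0.00211 to 0.0915 in sample 1 and -0.0246 to 0.0975 in sample 2. The values of named probe sets set the highest against the lowest sample as picked from these same data. Runs without either of these samples gave no value, and no member passed in any run. Their direction and side of the threshold were thus nearly fixed beforehand, and no stability is read from them. Of 448 such values, 446 kept their direction and their side of the threshold. The other 2 were the highest against the lowest sample of the first Prkcb probe set, -0.0159 with the deposited values and -0.0847 with median scaling. The causes were not tested. No paired analysis was possible because there was only 1 group.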
